A study of Mus musculus with 3 samples.

Results

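The 9 genes described here encode enzymes that cut extracellular matrix and the proteins that switch them on or hold them back. They are 4 matrix metalloproteinases (Mmp9, Mmp12, Mmp13 and Mmp14), 3 tissue inhibitors of metalloproteinases (Timp1, Timp2 and Timp3), the urokinase-type plasminogen activator Plau and its receptor Plaur. The set was chosen with earlier results of these data known, and all 9 symbols were found among the 34289 features counted in each of 3 single-cell RNA libraries. The libraries came from ear epidermis of male mice of the outbred CD1 stock (Cd1 in the labels), enriched on magnetic beads for Langerhans cells, the antigen-presenting cells that live in the epidermis. The untreated library came from mice given only Nair, a depilatory cream. The labels do not state that the treated mice received it as well, and if they did not, depilation and injury cannot be told apart. The croton oil library came from ear skin that received croton oil, an irritant plant oil, together with acetone and olive oil, and no library with the solvents alone was analysed here. The microneedle library came from ear skin punched several times with microneedles. Treated skin was collected 48 hours after the first treatment, and the labels give neither genotype, age nor the number of animals behind a library. Each group is therefore 1 library with no replicate, no difference between conditions could be tested, and every interval below covers counting error within a library only.

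Matrix metalloproteinases are zinc enzymes made as inactive precursors, and together they degrade collagens, elastin and other parts of the matrix and basement membrane. The inhibitors encoded by the Timp genes bind the active site and block it. Plau turns plasminogen into plasmin, a protease with broad targets that can also activate metalloproteinase precursors, and Plaur holds Plau at the cell surface. A Langerhans cell has to pass the basement membrane below the epidermis on its way to a lymph node, and gelatinases such as Mmp9 are known for a role in that step.

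Langerhans cells were taken as cells in which Cd74, H2-Aa, H2-Ab1 and H2-Eb1, genes of MHC class II antigen presentation, made up at least 2% of the unique molecular identifiers (UMIs, each standing for 1 captured molecule) and which had at least 2 UMIs of Epcam, an adhesion molecule of epidermal cells. This gate held 8651 of 9054 retained untreated cells, 5925 of 7626 croton oil cells and 5292 of 6479 microneedle cells. The median cell had 11526, 12586 and 17346 UMIs. The raw libraries held 117178809 to 127666928 UMIs, and pairs of libraries shared 13 to 32 cell barcodes. All 10 Langerhans markers, Cd207 (langerin) among them, were at 20 CPM (UMIs of the gene per 1e6 UMIs of the class) or more in the gated cells of every library, and the 6 fibroblast markers were below 1 CPM in all. Summed T cell markers were at 3.63, 70.8 and 11.4 CPM in the gated cells of the untreated, croton oil and microneedle libraries, summed macrophage markers at 42.6, 130 and 87.4 CPM, and summed keratinocyte markers at 313, 328 and 73.4 CPM. Summed neutrophil markers were at 2496, 2691 and 4023 CPM, most of it Il1r2, while S100a8 was at 0.0742, 18.4 and 20.1 CPM. The part of these other cells in the differences below was not tested, except where levels in those cells are given. The gate left out most cells of a cluster led by Fscn1 and Ccr7, the latter the homing receptor for lymph nodes: 103 of its 760 croton oil cells and 14 of its 168 microneedle cells passed, so these cells are described separately. This cluster had 6 of 10 Langerhans markers and 3 of 6 markers of other dendritic cells, and so met the naming rule for both, while the other Langerhans-like clusters had 10 of 10 and met it for Langerhans cells alone.

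In gated Langerhans cells, Timp1 and Plaur stood far above untreated in both treated libraries, and Mmp9 stood below. Of the 9 genes, 5 reached 20 CPM in at least 1 library and could be called. A gene was called when it differed at least 2-fold on CPM plus a pseudocount of 5, a scale that understates the change of low genes. With croton oil, 2 of these 5 were higher, against a background of 5.53% of all 6835 genes compared, and 1 was lower, against 5.46%, or 11.0% in either direction. With microneedle the counts were the same, against 3.86% of 6704 genes higher and 1.78% lower, or 5.64% in either direction. The median log2 change of the 5 was 0.85 with croton oil and 0.38 with microneedle, against -0.03 and 0.02 over all genes compared. Timp1 and Plaur passed 20 CPM only through the treated libraries, where they are high, so these counts and medians describe the genes that passed and support nothing about the 9. The 2 comparisons share the untreated library. TMM scaling, a scaling based on most genes, moved the share of higher genes among all called in croton oil from 50.3% to 62.4% and the median of all genes from -0.03 to 0.07, and the same 3 of the 9 genes stayed called in both comparisons.

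**Figure D1:**
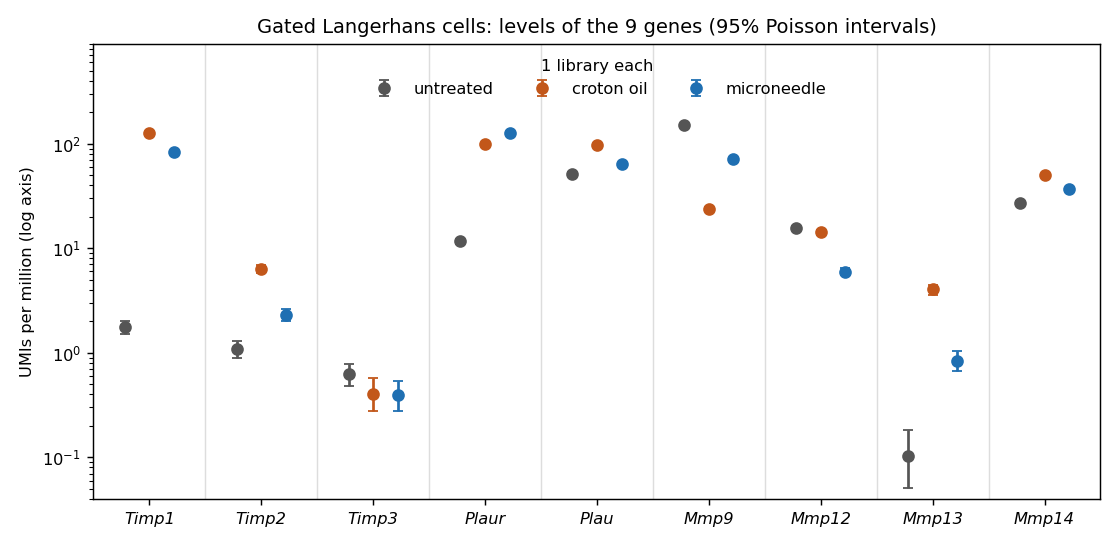
Level of each of the 9 genes in gated Langerhans cells, in CPM on a log axis, with 1 point per library and bars for 95% Poisson intervals. Timp1 goes from 1.75 in untreated to 126 in croton oil and 82.6 in microneedle, while Mmp9 goes from 151 to 23.7 and 71.0.

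The bases just before the start of Timp1 and Plaur are shown because both genes were called higher in both treated libraries, and those of Mmp13 because 2 of the motifs searched were found there. They are RefSeq promoter sequences (table of build GRCm38.p6) found at an identical match in GRCm39 and shortened where the annotated gene begins (89 bases left out for Timp1 and 33 for Plaur), all on the forward strand and 5′ to 3′. Capitals mark matches to TGANTCA, the AP-1 motif, searched on both strands.
Timp1 chrX:20736155-20736315: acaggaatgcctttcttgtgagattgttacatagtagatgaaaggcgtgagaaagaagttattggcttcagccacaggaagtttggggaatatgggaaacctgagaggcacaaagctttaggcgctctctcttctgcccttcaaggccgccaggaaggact
Plaur chr7:24161658-24161874: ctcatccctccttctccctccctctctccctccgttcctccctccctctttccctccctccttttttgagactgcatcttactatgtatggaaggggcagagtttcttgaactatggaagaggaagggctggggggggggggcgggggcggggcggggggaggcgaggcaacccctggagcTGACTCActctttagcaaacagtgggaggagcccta
Mmp13 chr9:7272264-7272513: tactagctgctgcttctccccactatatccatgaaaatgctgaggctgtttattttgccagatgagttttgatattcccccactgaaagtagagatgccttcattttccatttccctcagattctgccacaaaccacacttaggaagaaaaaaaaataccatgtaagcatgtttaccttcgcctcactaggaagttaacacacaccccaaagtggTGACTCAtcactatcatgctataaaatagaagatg

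Of the 9 genes, 7 had an entry in the promoter table, in 8 windows of 250 bases before a start. TGANTCA occurred 69 bases before the RefSeq start of Plaur, 35 bases before the Mmp13 start and, as TGAGTCA, 44 bases before the second start listed for Mmp12. It occurred in 6.75% of all 32851 windows of the same length. An NF-kB motif was also searched on both strands and found in no window of the 9 genes, and it was in 1.41% of all windows. TATAAA was searched on both strands as well. Among the 9 genes it was found before Mmp13 only, on the gene's strand, and 12.4% of all windows had it on either strand. A match is a description of the letters and not evidence of binding.

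Timp1, a secreted inhibitor of most metalloproteinases, had the largest change of the 9. The gene (ENSMUSG00000001131) lies at chrX:20736316-20740976 of GRCm39 on the forward strand, inside the Syn1 gene of the opposite strand. Its level in gated Langerhans cells was 1.75 CPM (95% interval 1.51 to 2.02) in untreated, 126 CPM (124 to 129) after croton oil and 82.6 CPM (80.8 to 84.4) after microneedle injury. The croton oil level was 72.1-fold the untreated level (62.4 to 83.7), a log2 change of 4.28 with the pseudocount, and the microneedle level was 47.1-fold (40.8 to 54.7), a log2 change of 3.70. Both treated libraries were thus high and the untreated library low, with 189 UMIs in 156 of its cells. Syn1 stood at 19.6, 16.4 and 30.6 CPM in the same cells, and whether strand was used in counting is not given in the sources used here.

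The Timp1 difference was also seen in how many cells carried the transcript. With every cell thinned to 3000 UMIs, 0.363% (0.247 to 0.514) of 8549 untreated Langerhans cells had a Timp1 UMI, 24.7% (23.6 to 25.8) of 5893 cells after croton oil and 17.6% (16.6 to 18.7) of 5233 cells after microneedle injury, once 102, 32 and 59 shallower cells had been left out. Unthinned shares were 1.80%, 51.9% and 42.5%. Among neutrophil-like cells the thinned shares were 1.82% of 110 croton oil cells and 0.738% of 271 microneedle cells, from median depths of 3046 and 3316 UMIs. Without thinning their shares were 0.939% and 1.91%. Monocyte/macrophage-like cells of the microneedle library, in contrast, had Timp1 at 63.0 CPM (53.6 to 73.6), with a UMI in 20.4% of 363 unthinned cells. In 2 of these cells lay 23.3% of the UMIs. The part of RNA from other cells in the Langerhans shares was not tested. Langerhans cells with 10 or more Timp1 UMIs held 23.9% of the Timp1 UMIs in croton oil and 25.5% in microneedle. Without them the levels were 1.64, 96.1 and 61.5 CPM. Here and below, a level without such cells leaves out only their UMIs of that gene and keeps the class total. It therefore lies below the level of the remaining cells. The cut of 10 UMIs was not adjusted for depth, which was highest in the microneedle Langerhans cells.

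Timp1 differed between the Langerhans clusters of the same library. Of the microneedle cells, 592 fell into the cluster that held most untreated cells (led by Hpgd and Adgre4), and there Timp1 was at 12.5 CPM (10.3 to 14.9). In the main microneedle cluster (led by Neb and Scube1, 3557 cells) it was at 84.7 CPM (82.5 to 86.9), and in 317 microneedle cells of the main croton oil cluster (led by H2-Ea and Mgl2) at 129 CPM (120 to 139). Even the 592 cells thus stood above the 7627 untreated cells of the same cluster, at 1.40 CPM (1.18 to 1.66). Heat-shock genes led a cluster with 817, 696 and 791 gated cells, where Timp1 was at 2.96, 157 and 108 CPM. In the Fscn1 and Ccr7 cluster outside the gate, in contrast, Timp1 stood at 4.30 CPM (3.09 to 5.84) for croton oil, 1.97 CPM (0.641 to 4.61) for microneedle, and thinned shares were 0.616% of 649 and 0.662% of 151 cells.

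**Figure D2:**
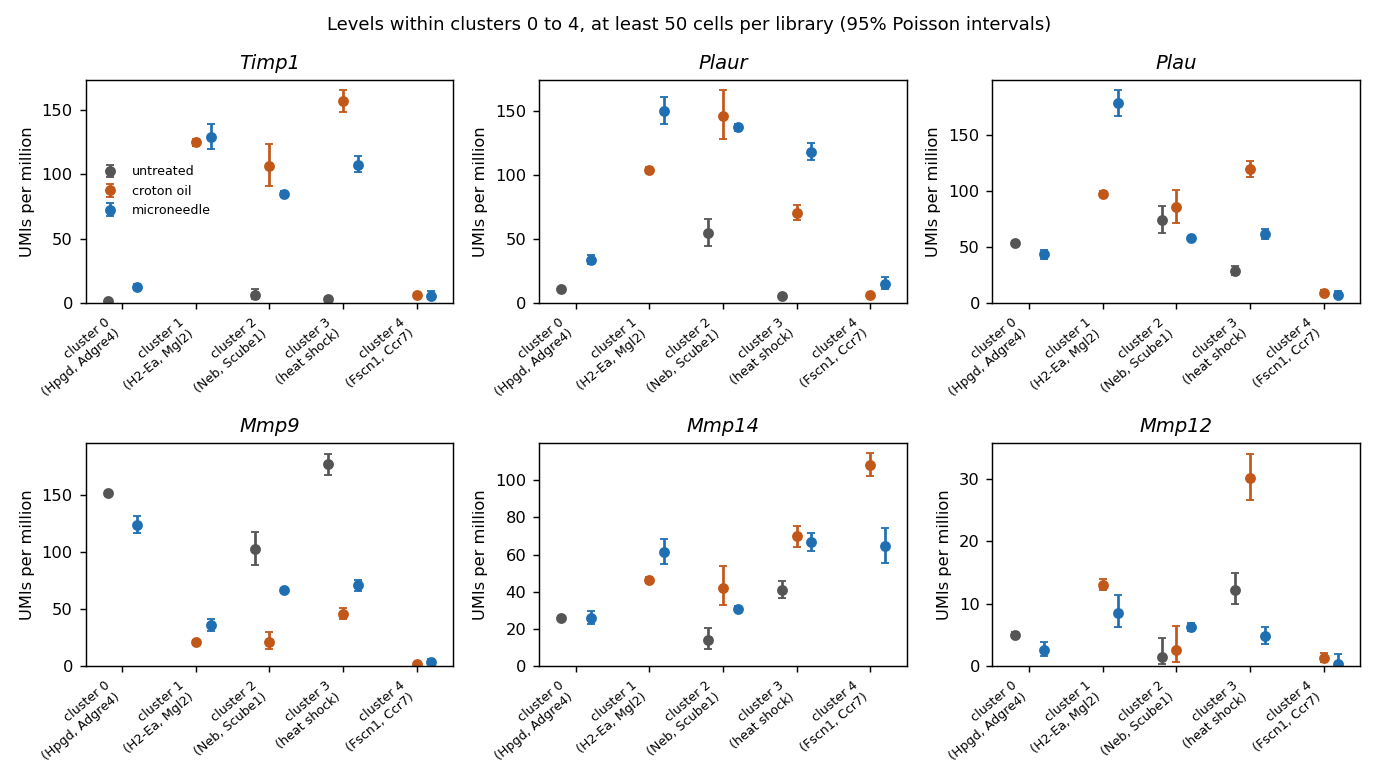
Levels of 6 of the genes in clusters 0 to 4, in CPM on linear axes, for each library with at least 50 cells in the cluster; bars are 95% Poisson intervals. Clusters 0 to 3, which are Langerhans-like, are shown by their gated cells and cluster 4, led by Fscn1 and Ccr7 and with markers of Langerhans and other dendritic cells, by all its cells. Timp1 and Plaur are low in cluster 4 of both treated libraries, and Mmp14 is highest there in croton oil, at 108.

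Plaur, the urokinase receptor, was the other gene well above untreated. The gene (ENSMUSG00000046223) lies at chr7:24161875-24175394 on the forward strand, and no other annotated gene overlaps it. Untreated Langerhans cells had 11.7 CPM (11.1 to 12.4), those after croton oil 98.4 CPM (96.3 to 101) and those after microneedle injury 125 CPM (123 to 128). These are 8.40-fold (7.92 to 8.92) and 10.7-fold (10.1 to 11.3) the untreated level, with log2 changes of 2.63 and 2.96. In contrast to Timp1, the microneedle library was the higher of the treated ones. Croton oil was lower than microneedle by 0.33 on the log2 scale. It turned to 0.21 higher when the Plaur UMIs of cells with 10 or more of them were left out. That cut met 66 croton oil and 323 microneedle cells, and the part of the greater microneedle depth in this was not tested. Such cells held 17.8%, 10.4% and 39.8% of the Plaur UMIs in the untreated, croton oil and microneedle libraries. With these UMIs left out and the class total kept, the levels were 9.63, 88.2 and 75.5 CPM. At 3000 UMIs per cell, 2.15%, 21.0% and 22.5% of Langerhans cells had a Plaur UMI (5.94%, 48.7% and 49.4% unthinned), against 1.08% of croton oil and 1.99% of microneedle cells of the Fscn1 and Ccr7 cluster outside the gate. In the 592 microneedle cells of the main untreated cluster Plaur was at 33.8 CPM, against 10.7 CPM in the untreated cells of that cluster. In the main microneedle cluster it was at 137 CPM in microneedle cells and 54.3 CPM (44.5 to 65.6) in 135 untreated cells.

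Neutrophil-like cells had a high Plaur level, 886 CPM (821 to 955) in 213 croton oil cells and 727 CPM (689 to 766) in 418 microneedle cells, and the untreated library held 1 such cell. Cells of 10 or more Plaur UMIs, 20 in croton oil and 40 in microneedle, held 39.6% and 39.4% of these UMIs, and without them the levels were 535 and 440 CPM. The Langerhans level was 11.1% and 17.3% of the neutrophil-like level in the same libraries, all cells included. The median of the 10 neutrophil markers in Langerhans cells was 0.0562% and 0.130% of their neutrophil-like level, and the highest was Il1r2, at 119% and 196%. In gated cells with at most 1 UMI of S100a8 and S100a9, the log2 changes of Plaur were 2.62 and 2.97. Monocyte/macrophage-like cells of the microneedle library had Plaur at 148 CPM (134 to 164), against 125 CPM in its gated Langerhans cells. A Plaur UMI was found in 45.7% of these 363 cells without thinning.

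Plau, the enzyme itself, stayed nearer to untreated. The gene (ENSMUSG00000021822, chr14:20886722-20893453) was at 51.9 CPM (50.5 to 53.3) in untreated Langerhans cells, 97.3 CPM (95.1 to 99.4) after croton oil and 63.7 CPM (62.1 to 65.3) after microneedle injury. Neither log2 change, 0.85 and 0.27, reached 2-fold. Cells with 10 or more Plau UMIs held 22.5%, 21.6% and 41.8% of its UMIs. With these UMIs left out and the class total kept, the levels were 40.2, 76.3 and 37.1 CPM. On that count the microneedle change turned to -0.10 while the croton oil change stayed at 0.85. In croton oil the change passed 2-fold (1.03) when the class II share had to reach 5%. Within the microneedle library Plau was at 179 CPM (168 to 190.5) in the 317 cells of the main croton oil cluster, 57.8 CPM (56.0 to 59.6) in the main microneedle cluster and 43.4 CPM (39.3 to 47.8) in the main untreated cluster. At 3000 UMIs per cell, 9.45%, 18.9% and 11.3% of Langerhans cells had a Plau UMI (20.1%, 39.9% and 24.6% unthinned), against 5.45% and 4.80% of neutrophil-like cells in croton oil and microneedle.

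Mmp9, the gelatinase that cuts denatured collagens and the type IV collagen of basement membranes, went the other way. The gene (ENSMUSG00000017737) lies at chr2:164780439-164797771. Untreated Langerhans cells had 151 CPM (149 to 153), croton oil cells 23.7 CPM (22.7 to 24.8) and microneedle cells 71.0 CPM (69.3 to 72.7). The croton oil level was 0.157 of the untreated level (0.150 to 0.165), or 6.36-fold lower, and the microneedle level 0.470 (0.457 to 0.484), or 2.13-fold lower, with log2 changes of -2.44 and -1.04. The microneedle change lies just past the 2-fold limit. Mmp9 was also the only 1 of the 5 genes called between the treated libraries, with a log2 difference of -1.40 for croton oil against microneedle, where 1.01% of 6637 genes were lower and 1.58% higher, 2.59% in all. TMM scaling gave -1.29 there, moved the share of higher genes among those called from 61.0% to 74.2% and moved the median of all genes from -0.06 to 0.07. Timp1 (0.58), Plau (0.57) and Mmp14 (0.39) were higher in croton oil than in microneedle by less than 2-fold.

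The share of Langerhans cells with an Mmp9 UMI was 36.1% (35.0 to 37.1) in untreated, 5.89% (5.30 to 6.52) in croton oil and 18.3% (17.2 to 19.4) in microneedle at 3000 UMIs per cell, and 76.0%, 18.8% and 59.0% without thinning. Few cells stood out, with 27, 6 and 3 cells of 10 or more Mmp9 UMIs. In the main untreated cluster Mmp9 was at 151 CPM in untreated cells and 124 CPM (117 to 131) in the 592 microneedle cells. In the main microneedle cluster it was at 66.7 CPM in microneedle cells and 103 CPM (88.9 to 118) in 135 untreated cells. Within neither of these clusters was the microneedle level 2-fold below untreated. The 317 microneedle cells of the main croton oil cluster had 35.7 CPM (30.8 to 41.1), and 21.6 CPM (20.5 to 22.7) was found in its croton oil cells. In the heat-shock cluster the levels were 176, 45.8 and 70.6 CPM in the order of the libraries above. Mmp9 was low in the Fscn1 and Ccr7 cluster outside the gate, with 17 UMIs in 657 croton oil cells and 5 UMIs in 154 microneedle cells, or 1.78 and 1.97 CPM.

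Neutrophil-like cells, whose granules carry Mmp9 protein, had the highest Mmp9 level of any class. It reached 1010 CPM (940 to 1083) with croton oil, against 329 CPM (304 to 356) with microneedle. This 3.07-fold difference (2.76 to 3.41, log2 1.60) had the opposite direction to that in Langerhans cells. Without 21 croton oil cells and 1 microneedle cell of 10 or more Mmp9 UMIs the levels were 680 and 324 CPM. Among 5501 genes compared in neutrophil-like cells, 8.58% were at least 2-fold higher in croton oil and 12.3% lower, 20.9% in all. Of the 6 genes of the 9 that could be called there, Mmp9 was higher and Mmp14 (15.4 and 37.4 CPM) and Mmp12 (no UMI in croton oil, 50 UMIs in microneedle) were lower. In 2 microneedle cells lay 76.0% of the Mmp12 UMIs, and without them its level was 6.32 CPM, too low to be called. The Mmp14 call rests on 12 and 71 UMIs, and without doublet removal its log2 difference of -1.05 became -0.96, under 2-fold. The thinned shares of neutrophil-like cells with an Mmp9 UMI were 86.4% (78.5 to 92.2) of 110 croton oil and 57.2% (51.1 to 63.2) of 271 microneedle cells, but 103 and 147 shallower cells had been left out, and the unthinned shares of the whole class were 76.5% and 60.8%. The Langerhans level of Mmp9 was 2.35% of the neutrophil-like level in croton oil and 21.6% in microneedle. Both were above the neutrophil marker medians given for Plaur but below the highest marker, Il1r2, at 119% and 196%. In gated cells with at most 1 UMI of S100a8 and S100a9 the Mmp9 changes were -2.40 and -1.04.

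**Figure D3:**
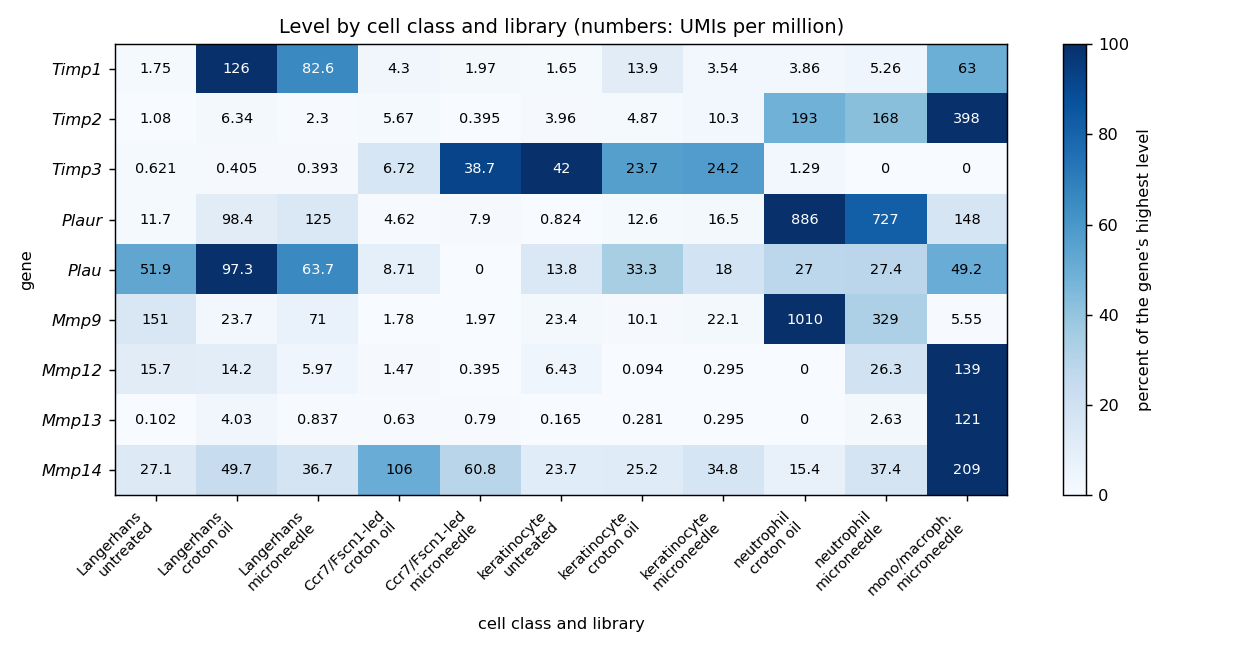
Level of each of the 9 genes (rows) in each class and library with at least 50 cells (columns), printed in CPM; the shade gives the percent of that gene's highest level. Mmp9 and Plaur are highest in neutrophil-like cells, Timp2, Mmp12, Mmp13 and Mmp14 in monocyte/macrophage-like cells, Timp3 in untreated keratinocyte-like cells, and Timp1 and Plau in croton oil Langerhans cells.

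Mmp14, a membrane-bound metalloproteinase that cuts collagen next to the cell and activates the Mmp2 precursor, was present in Langerhans cells of every library. Its levels were 27.1 CPM (26.1 to 28.1) in untreated, 49.7 CPM (48.2 to 51.3) after croton oil and 36.7 CPM (35.5 to 37.9) after microneedle injury, log2 changes of 0.77 and 0.38 that stayed under 2-fold. The gene (ENSMUSG00000000957, chr14:54668878-54682821) overlaps Gm56768, a noncoding gene of the same strand that stood at 6.65, 11.5 and 7.23 CPM, so reads of these genes could be split between them. Unlike Timp1, Plaur, Plau and Mmp9, Mmp14 was not low in the Fscn1 and Ccr7 cluster: 106 CPM (99.8 to 113) for croton oil, 60.8 CPM (51.6 to 71.2) for microneedle, outside the gate. Gated microneedle cells of the heat-shock cluster, at 66.9 CPM (62.2 to 71.9), and of the main croton oil cluster, at 61.2 CPM (54.8 to 68.2), stood as high. At 3000 UMIs, 25.6% of 649 croton oil cells of the Fscn1 and Ccr7 cluster had an Mmp14 UMI, against 13.3% of gated croton oil Langerhans cells and 1.82% of neutrophil-like cells. In microneedle the thinned shares were 9.96% of gated Langerhans cells and 7.75% of neutrophil-like cells. Unthinned, 47.4% of that cluster outside the gate and 42.1% of gated cells had an Mmp14 UMI there. Monocyte/macrophage-like cells of the microneedle library had 209 CPM (192 to 228).

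Mmp12, the macrophage elastase, rested on few cells. Langerhans levels were 15.7 CPM (14.9 to 16.4) in untreated, 14.2 CPM (13.4 to 15.1) after croton oil and 5.97 CPM (5.50 to 6.48) after microneedle injury. Of the 1689 untreated UMIs, 4 cells held 50% and the top cell held 434. Without cells of 10 or more Mmp12 UMIs the levels were 3.08, 5.92 and 2.24 CPM, and the croton oil change turned from -0.10 to 0.44. The gate passed 9 untreated cells of the monocyte/macrophage-like cluster. When gated cells also had to lie in a Langerhans-like cluster, the log2 changes of Mmp12 were 0.89 and 0.05 in place of -0.10 and -0.91. For this reason no direction is given for Mmp12. The gene (ENSMUSG00000049723, chr9:7344381-7369499) is at 139 CPM (125 to 154) in 363 microneedle monocyte/macrophage-like cells, where 57 cells had a UMI and 12 cells held 64.9% of the UMIs, and without those 12 it was at 48.8 CPM. The 3 such cells of the untreated library held 353 Mmp12 UMIs, and the 6 of the croton oil library 5.

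Mmp13, a collagenase that cuts fibrillar collagens, was detected at a low level (ENSMUSG00000050578, chr9:7272514-7283331). Untreated Langerhans cells had 11 UMIs, or 0.102 CPM (0.0509 to 0.182), croton oil cells 329 UMIs, or 4.03 CPM (3.61 to 4.49), and microneedle cells 81 UMIs, or 0.837 CPM (0.665 to 1.04). The ratios to untreated were 39.5-fold (21.8 to 80.0) and 8.21-fold (4.35 to 17.1), but on the scale with the pseudocount the changes were 0.82 and 0.19. In croton oil 9 cells held 50% of the UMIs, and without 9 cells of 10 or more UMIs the level was 1.94 CPM. The croton oil level was 12.1 CPM (9.86 to 14.6) in the heat-shock cluster and 3.13 CPM (2.72 to 3.58) in the main croton oil cluster. Monocyte/macrophage-like cells of the microneedle library had 121 CPM (107 to 135), or 63.8 CPM without 8 cells that held 47.0% of the UMIs. The Langerhans level there was 0.694% of the higher value, and macrophage markers in Langerhans cells had a median of 0.329% of their level in those cells, with a range of 0.0244% to 12.1%. The microneedle value of Mmp13 lies within that range. Within the microneedle library Mmp13 differed between Langerhans clusters, at 5.23 CPM (3.47 to 7.55, 28 UMIs) in the 317 cells of the main croton oil cluster, 2.23 CPM in the heat-shock cluster, 0.386 CPM (0.255 to 0.562) in the main microneedle cluster and 0.106 CPM (1 UMI) in the 592 cells of the main untreated cluster. In croton oil the 6 cells of that class held 42 Mmp13 UMIs, too few for such a comparison.

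Timp2, which both inhibits metalloproteinases and takes part in the activation of the Mmp2 precursor by Mmp14, was low in Langerhans cells (ENSMUSG00000017466, chr11:118191887-118246566, reverse strand). The levels were 1.08 CPM (0.889 to 1.29), 6.34 CPM (5.80 to 6.91) and 2.30 CPM (2.01 to 2.63) in the same order of libraries (untreated, croton oil, microneedle), or 5.89-fold (4.81 to 7.27) and 2.14-fold (1.70 to 2.71) the untreated level. Other cells had far more, with 193 and 168 CPM in croton oil and microneedle neutrophil-like cells and 398 CPM (373 to 423) in microneedle monocyte/macrophage-like cells. The Langerhans level was 3.29% and 1.37% of the neutrophil-like level. These values were above the neutrophil marker medians of 0.0562% and 0.130% but within the marker ranges, which reached 119% and 196% with Il1r2. In microneedle it was 0.579% of the monocyte/macrophage-like level, against a macrophage marker median of 0.329% and a range of 0.0244% to 12.1%, so the microneedle value of Timp2 also lies within the range of those markers. Thinned shares of Langerhans cells with a Timp2 UMI were 0.222%, 1.92% and 0.688% (0.774%, 6.43% and 3.19% unthinned).

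Timp3, an inhibitor that binds to the matrix, was highest in keratinocyte-like cells (ENSMUSG00000020044, chr10:86136236-86185371, with Syn3 on the opposite strand). It was at 42.0 CPM (37.0 to 47.5) in 240 untreated keratinocyte-like cells, 23.7 CPM (20.8 to 26.8) in 215 croton oil cells and 24.2 CPM in 97 microneedle cells, log2 changes of -0.71 and -0.69. Cells with 10 or more Timp3 UMIs (6, 5 and 2 cells) held up to 45.5% of them, and without these cells the levels were 25.2, 12.9 and 14.2 CPM. Langerhans cells had 0.621, 0.405 and 0.393 CPM, or 1.48%, 1.71% and 1.62% of the keratinocyte-like level, against keratinocyte marker medians of 0.779%, 0.699% and 0.172% and highest values of 1.86%, 3.14% and 0.394%. Of the 67 untreated Timp3 UMIs in gated cells 32 lay in the main untreated cluster, and of the 33 in croton oil 7 lay in the main croton oil cluster. In croton oil 1 gated cell held 18 of them, and without it the level was 0.184 CPM. In microneedle 1 gated cell held 13 of 38, and without it the level was 0.258 CPM, so the croton oil and microneedle percentages rest in part on 1 cell each. No Timp3 UMI was found in the microneedle neutrophil-like and monocyte/macrophage-like cells, which allows a level of up to 1.58 and 1.19 CPM by the limit of 3 counts.

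The keratinocyte-like cells were few and deeper than the Langerhans cells, with medians of 24879, 50854 and 26903 UMIs, and mCherry, a fluorescent protein that no label mentions, was among the 10 genes that led their cluster. Of the 9 genes, 4 reached 20 CPM in the croton oil comparison and 1, Plau, was called, against a background of 12.9% of 7615 genes higher and 14.3% lower, 27.2% in all. Plau was at 13.8 CPM (11.0 to 17.1) in untreated, 33.3 CPM (29.9 to 37.0) after croton oil and 18.0 CPM (13.8 to 23.1) after microneedle injury, with a log2 change of 1.02 in croton oil, just past the limit, and 0.29 in microneedle. In croton oil 8 cells with 10 or more UMIs held 37.9% of the Plau UMIs. With these UMIs left out its level was 20.7 CPM, less than 2-fold above untreated, so on that count the call was lost. It had also reached 20 CPM only in croton oil, the library where it was high, so this count supports nothing about the 9 genes. Of the 3 that reached 20 CPM in the microneedle comparison none was called, against 6.75% of 7603 genes higher and 6.43% lower, 13.2% in all. Between the treated libraries none of 4 was called, against 1.32% of 7416 genes higher in croton oil and 6.39% lower, 7.71% in all. Plaur stayed under 20 CPM but had 5, 135 and 56 UMIs in the 3 libraries, or 0.824, 12.6 and 16.5 CPM, ratios of 15.3-fold (6.41 to 48.0) and 20.1-fold (8.10 to 64.1). Without 2 cells of 10 or more Plaur UMIs in each treated library the levels were 9.92 and 9.74 CPM, too close to give an order of the treated libraries. Timp1 had 10, 149 and 12 UMIs, or 1.65, 13.9 and 3.54 CPM. Mmp9 was at 23.4, 10.1 and 22.1 CPM in these cells, but 3 croton oil cells held 63.0% of its UMIs there and without them it was at 3.74 CPM. At that level Mmp9 would be called lower in croton oil than in untreated and than in microneedle, so the counts called here depend on the Mmp9 UMIs of those 3 cells. Without 3 cells of 10 or more Timp1 UMIs, Timp1 was at 8.61 CPM in croton oil. Mmp14 was at 23.7, 25.2 and 34.8 CPM. The Langerhans marker Cd207 was at 86.0, 21.3 and 89.4 CPM in the keratinocyte-like cells, and the part of Langerhans RNA in their levels was not tested.

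Other genes of the same systems, taken from lists, were mostly below 20 CPM in Langerhans cells. None of 19 further matrix metalloproteinases and none of 5 further inhibitors reached it, so Mmp9 and Mmp14 were the metalloproteinases that did. The nearest were Mmp25, at 6.84, 13.6 and 14.0 CPM, and Mmp19, at 1.57, 13.9 and 8.30 CPM, both named after their values were seen. Among adamalysins, the cell-surface and secreted relatives of the metalloproteinases, 1 of 7 that could be called was higher and 1 lower in croton oil, and 1 of 6 was higher in microneedle, beside 11.0% and 5.64% of all genes called in either direction. Adam9 was at 51.8, 112 and 129 CPM, with log2 changes of 1.05 and 1.24. Adam23, which lacks the catalytic motif and takes part in adhesion, was at 426, 149 and 227 CPM, with changes of -1.49 and -0.89.

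In the plasminogen system, 3 of 10 genes were called higher in croton oil (5.53% of all genes) and 3 of 10 in microneedle (3.86%), and none lower (5.46% and 1.78%). Of the genes called, Lrp1 reached 20 CPM only in the treated libraries, where it was high, so these counts support nothing about the list. S100a10, a subunit of a plasminogen receptor at the cell surface, was at 389, 1101 and 769 CPM, with log2 changes of 1.49 and 0.97. Eno1, a glycolytic enzyme that also binds plasminogen and has a near-identical gene copy that could share its reads, was at 34.3, 113 and 90.3 CPM, with changes of 1.59 and 1.28. Lrp1, the endocytic receptor that clears complexes of urokinase with its inhibitors, was at 18.1, 66.2 and 66.0 CPM, with changes of 1.62 in each. St14, which encodes the membrane protease matriptase, was at 140, 254 and 303 CPM and was called in microneedle only, where its change was 1.08, against 0.83 in croton oil, and the difference was not tested. Among matrix components and receptors, Sdc4, a cell-surface proteoglycan shed by proteases, was called higher in both, at 131, 736 and 373 CPM, and was 1 of 3 that could be called.

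**Figure D4:**
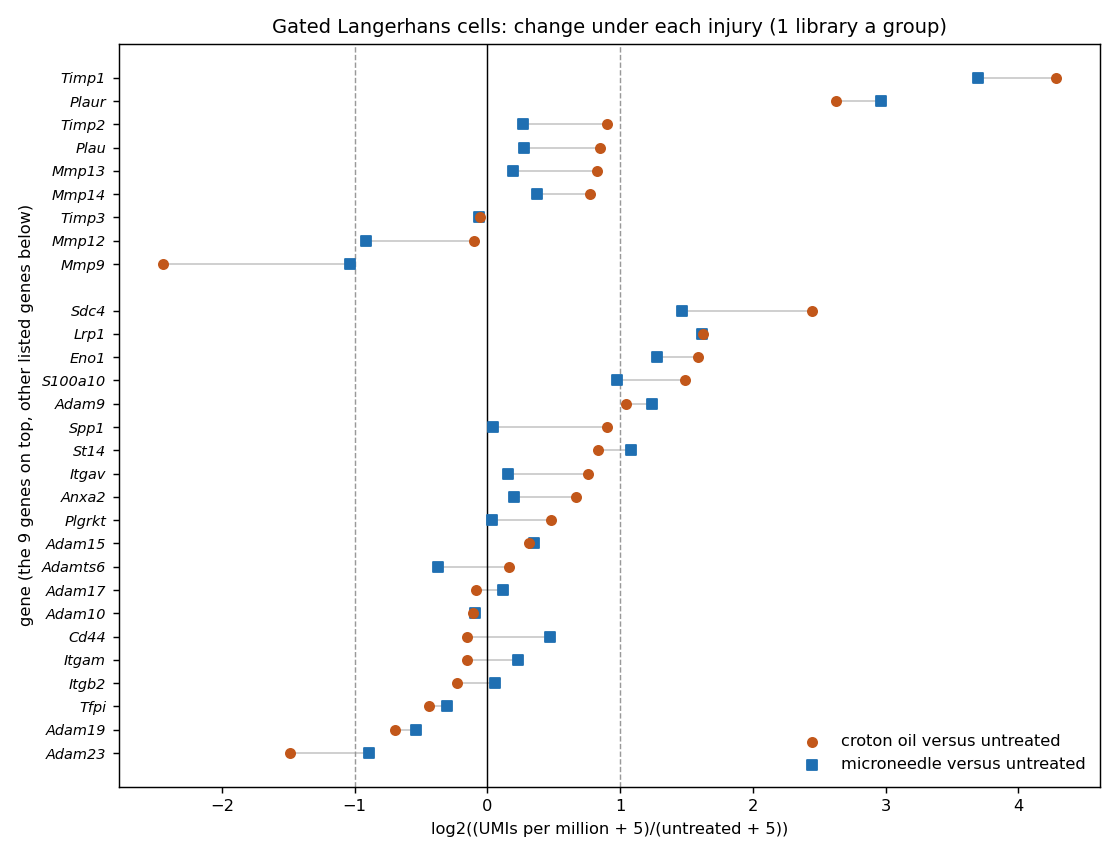
Log2 change of CPM plus 5 in gated Langerhans cells, croton oil (circles) and microneedle (squares) against the same untreated library, for the 9 genes and below them the other listed genes that reached 20 CPM. Dashed lines mark 2-fold; Timp1, Plaur, Sdc4, Lrp1, Eno1 and Adam9 lie beyond it on the right in both, and Mmp9 on the left.

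In keratinocyte-like cells other members of these lists were called, beside 27.2% of all genes called in croton oil and 13.2% in microneedle, and each list holds few genes. Several called genes, Mmp3, Adam19, Adam23, Thbd and Tnc among them, reached 20 CPM only in libraries where they were high, so these counts support nothing about the lists. Of the further metalloproteinases, Mmp3 (stromelysin) was lower in croton oil, at 52.3, 18.2 and 46.0 CPM, and 2 more could be called and were not, among them Mmp28 at 27.2, 27.3 and 48.7 CPM. Among 7 adamalysins in croton oil 2 were higher and 2 lower, with Adam23 at 83.1, 18.2 and 46.3 CPM and Adam19 at 35.3, 12.1 and 32.5 CPM. In the plasminogen list 3 of 12 were higher and 2 lower after croton oil, against 4 of 13 and 2 in microneedle. F3, or tissue factor, the starter of coagulation, was at 326, 77.1 and 50.5 CPM. Thbd, or thrombomodulin, had 1 UMI in untreated and 79 UMIs in microneedle, a ratio of 141-fold with a counting interval of 24.7 to 5656. Of the matrix list 3 of 9 were higher in croton oil and 2 of 10 in microneedle, with Tnc (tenascin C) at 4.62, 47.9 and 32.5 CPM.

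The genes with levels most like each of the 9 were found over 11 profiles of class and library with at least 50 cells, among 10213 genes, by Pearson's r of log2(CPM + 5). The profiles share libraries and treatments, so r is a description only. Timp1 was most like C1qc (r = 0.96), C1qb (0.90) and Lpar1 (0.90), and Plaur most like Sipa1l2 (0.97), Cd14 (0.96) and Il17ra (0.95). For Mmp9 they were Hrh2 (0.96), Gm43672 (0.95) and Armc7 (0.95), and for Plau Slc16a6 (0.93), Slc35c2 (0.92) and Tmed10 (0.91). Mmp14 was most like Gm56768 (0.98), the gene that overlaps it, then St6galnac6 and Sestd1 (0.93 each). The remaining pairs were Mmp12 with Rgl1 (0.98), Cd180 (0.95) and Mcoln1 (0.94), Mmp13 with Cnrip1, Tmem37 and Nr1h3 (0.99, 0.99 and 0.98), and Timp2 with Hmox1 (0.99) and 4930430E12Rik (0.98). Timp3 was most like Clec2g (0.97), Crabp2 (0.95) and 9230114K14Rik (0.95).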

How the data were processed

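The deposited values are counts of UMIs per gene and cell, whole numbers that are not normalized. The file headers name Cell Ranger 8.0.0 as the program that wrote them, and the submitters' processing notes name GRCm39. The libraries count the 3′ end of transcripts, so levels are compared for a gene between cells and not between genes. Cells were kept with at least 500 genes and at most 10% mitochondrial UMIs. Scrublet's own threshold marked 1, 0 and 0 cells and was taken not to have worked, so the highest scores were removed at 0.8% per 1000 cells, which took out 773, 532 and 376 cells. Retained cells were clustered together (scanpy 1.11.5, leidenalg 0.10.2, resolution 0.5, 2000 variable genes, 30 components). Clusters were named from marker lists when at least 50% of a list, and at least 3 markers, reached 20 CPM and a share of 0.2 of their highest cluster level. The monocyte/macrophage-like cluster also held melanocyte genes, so its cells with 3 or more UMIs of melanocyte markers were left out, and gated Langerhans cells were taken out of every other class.

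UMIs were summed per library and class and divided by the class total (CPM), with exact 95% Poisson intervals; ratios have exact conditional binomial intervals and shares Clopper-Pearson intervals. Classes under 50 cells are given as UMIs only. Changes are log2((CPM + 5)/(CPM + 5)), over genes of at least 20 CPM in either library. TMM factors came from edgeR 4.0.16. With 1 library per group no p-value was computed. The 9 genes, the lists and the markers were chosen with earlier results of these data known. Named were the 9 genes, listed genes at least 2-fold changed in Langerhans cells at 20 CPM, the 2 listed genes per list with the largest change in keratinocyte-like cells, and the 3 genes with the most similar profile. Of these, 2 genes are not reported here. The largest-cluster, heat-shock and 10-UMI alternatives were chosen after seeing the data. The 10-UMI alternative left out only the UMIs of the gene in those cells and kept the class total. Positions are from GENCODE M39 on GRCm39. The scripts were tested on simulated data.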

Additional observations from a re-analysis of the deposited data

How the results depend on the processing

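No paired analysis was possible because each group is 1 library, and for the same reason no replicate could be left out. Over 18 alternatives for Langerhans cells, the number of the 9 genes called stayed at 3, 3 and 1 (croton oil and microneedle against untreated, croton oil against microneedle), except that 4 were called in croton oil with a class II share of 5%, where Plau was added. The log2 change of Timp1 in croton oil was 4.62 with a class II share of 5%, 4.12 over all Langerhans-like clusters, 4.34 in the largest cluster of each library, 4.36 with TMM scaling, 4.38 without mitochondrial and ribosomal genes in the total, 5.53 with a pseudocount of 1 CPM, 4.38 with cells thinned to 3000 UMIs and 3.93 without cells of 10 or more Timp1 UMIs. In microneedle it was 4.28 with a class II share of 5%, 3.81 in the largest clusters, 3.79 without mitochondrial and ribosomal genes, 4.92 with a pseudocount of 1 CPM, 3.89 with thinned cells and 3.32 without cells of 10 or more UMIs. With genes of at least 50 CPM, 227 genes were lower in croton oil (373 at 20 CPM), 68 in microneedle (119) and 44 in croton oil against microneedle (67), since fewer genes were tested. In keratinocyte-like cells 2 of the 9 genes were called in croton oil with a pseudocount of 1 CPM. The share of cells with a Timp1 UMI was 0.644%, 33.5% and 23.8% at 5000 UMIs and 1.80%, 51.9% and 42.5% without thinning, as deeper cells show more. Across alternatives Plaur ranged from 2.52 to 3.07 in croton oil and from 2.46 to 3.31 in microneedle, and Mmp9 from -2.62 to -2.35 and from -1.17 to -1.02. Mmp12 changed sign in both comparisons (-0.34 to 0.89 and -1.39 to 0.17), as did Plau in microneedle (-0.10 to 0.52) and Timp3. Mmp12, Mmp13, Timp2 and Timp3 stayed below 20 CPM in Langerhans cells of every library, and 3 UMIs of a gene there correspond to 0.0278 to 0.0368 CPM.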

Other observations

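Some protease genes outside the 9 had higher levels in other cells than in gated Langerhans cells, and are named here after their values were seen. Mmp25, a membrane-anchored metalloproteinase, was at 328 CPM (317 to 340) among croton oil and 467 CPM (441 to 495) among microneedle cells of the Fscn1 and Ccr7 cluster outside the gate, against 13.6 and 14.0 CPM in gated Langerhans cells. Plat, the tissue-type plasminogen activator, was at 45.1 CPM (41.0 to 49.6) and 73.0 CPM (62.9 to 84.4) there, against 5.58 and 7.85 CPM in gated cells, while Plau and Plaur were low in that cluster. In keratinocyte-like cells Plat was at 14.0, 22.0 and 8.26 CPM in the untreated, croton oil and microneedle libraries. Mmp8, the neutrophil collagenase, stood at 450 CPM (404 to 499.9) among croton oil neutrophil-like cells, against 135 CPM (119 to 153) among those of microneedle. Mmp19 was at 243 CPM in microneedle monocyte/macrophage-like cells.

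Some levels came from very few cells. In the Fscn1 and Ccr7 cluster of the microneedle library, 95 of 98 Timp3 UMIs lay in 1 cell, and without it the level was 1.18 CPM in place of 38.7 CPM. Neutrophil-like cells of the microneedle library had 50 Mmp12 UMIs in 5 cells, and those of the croton oil library 0 in 213 cells. Reck, a membrane-bound metalloproteinase inhibitor, was at 9.23 CPM in untreated Langerhans cells, 0.772 CPM after croton oil and 3.27 CPM after microneedle injury, below the level at which genes were called.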
